A study of Mus musculus with 8 samples.

Results

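The low-density lipoprotein (LDL) receptor family is represented here by 7 genes, Lrp1, Lrp1b, Lrp4, Lrp5, Lrp6, Lrp8 and Vldlr. They were taken by symbol from a table of 20802 genes measured in mouse hippocampus, and all 7 were among the 18865 that averaged 10 or more normalized counts. Lrp1 was selected on its log2 difference between these same mice, and the other 6 were taken by name as its relatives. The differences of all 7 members between the groups are therefore given as a description, with no test. RNA-sequencing covered 8 male C57BL/6 mice at postnatal day (PND) 28, of which 4 formed the Anesthesia group and 4 the Control group. Anesthesia mice had received ketamine intraperitoneally at 35 mg per kg once a day for 5 days from PND16, and the hippocampus was taken 1 week later. Control mice went through the same handling with saline according to the treatment protocol, although their titles call them untreated. Symbols and positions follow GENCODE M21 on GRCm38.

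Receptors of this family carry large extracellular domains with ligand-binding repeats, a single membrane span and a short cytoplasmic tail. Lrp1 and Lrp1b are giant endocytic receptors that take up lipoproteins, proteases and protease inhibitors, and Lrp1 is found on neurons, astrocytes and vascular mural cells. Lrp8 (ApoER2) and Vldlr are the receptors for reelin, which guides neuronal positioning and modulates synaptic plasticity in the hippocampus. Lrp5 and Lrp6 are Wnt co-receptors, and Lrp4 is the receptor for agrin.

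The members differ in the base composition of their transcripts, which bears on the values below. In the longest coding transcript, GC content was 57.9% in Lrp1, 58.6% in Lrp5 and 54.7% in Lrp4. It was 47.4% in Lrp8, 46.0% in Lrp6, 43.8% in Vldlr and 43.5% in Lrp1b. Homologous exons of equal length show this contrast between close relatives. They are printed 5′ to 3′ on the coding strand from the GENCODE M21 transcripts, with capitals at the positions where the paired genes differ. The first pair is the coding part of the last exon of Lrp1 (exon 89 of 89, chr10:127538953-127539090, minus strand, GRCm38) and of Lrp1b (exon 91 of 91, chr2:40596937-40597074, minus strand), and each is 138 bases long.
Lrp1: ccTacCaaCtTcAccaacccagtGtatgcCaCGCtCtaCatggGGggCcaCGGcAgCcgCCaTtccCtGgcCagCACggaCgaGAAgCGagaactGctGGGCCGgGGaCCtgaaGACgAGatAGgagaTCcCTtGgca
Lrp1b: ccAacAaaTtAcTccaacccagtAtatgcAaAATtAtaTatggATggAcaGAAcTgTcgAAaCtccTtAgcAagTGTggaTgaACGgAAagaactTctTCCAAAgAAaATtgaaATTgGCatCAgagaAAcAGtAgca
These exons were identical at 80 of 138 positions (58.0%). At 41 of the 58 differing positions Lrp1 had G or C where Lrp1b had A or T, and at 7 the reverse held. GC content was 62.3% in the Lrp1 exon and 37.7% in the Lrp1b exon. The second pair is exon 22 of 23 of Lrp5 (chr19:3586383-3586480, minus strand) and of Lrp6 (chr6:134453550-134453647, minus strand), each 98 bases long.
Lrp5: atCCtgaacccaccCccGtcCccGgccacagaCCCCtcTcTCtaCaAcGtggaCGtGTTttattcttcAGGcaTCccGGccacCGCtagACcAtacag
Lrp6: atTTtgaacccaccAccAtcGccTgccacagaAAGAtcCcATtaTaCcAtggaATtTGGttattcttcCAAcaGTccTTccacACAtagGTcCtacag
Here 64 of 98 positions were identical (65.3%), and GC content was 59.2% in the Lrp5 exon and 44.9% in the Lrp6 exon. At 22 of the 34 differing positions Lrp5 had the G or C and Lrp6 the A or T, against 8 in the other direction.

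The deposited values are counts that the authors normalized with DESeq2, so their totals, about 18702600 to 19231100 in each mouse, do not reflect sequencing depth. From the spacing of the lowest values, roughly 15500000 to 22200000 reads per mouse lay behind them. Of the marker genes examined for the hippocampus, 9 of 10 CA1 pyramidal neuron genes and 10 of 10 dentate granule neuron genes were found in the table by symbol. The symbol not found was Nov, and other names of that gene were not searched. Presence in the table was not read as a measure of tissue. The libraries differed widely in choroid plexus markers. In the text below, libraries are called rich or poor in choroid plexus markers by a summed level above or below 20000 normalized counts, a limit chosen after the values were seen. The summed level of 14 choroid plexus markers was between 46403 and 104761 normalized counts in Anesthesia replicate 1 and Control replicates 2, 3 and 4, and between 4434 and 10037 in the other 4 mice. All 14 markers had a log2 difference below 0 (median -1.81), although 0 of the 14 had an unadjusted p under 0.05. The part of choroid plexus RNA in the differences below was not tested beyond the values given beside them. In bulk tissue, fewer cells of a type and less RNA per cell cannot be told apart.

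Lrp1 was the most highly expressed member, and it stood higher in every Anesthesia mouse than in any Control mouse. Lrp1 (ENSMUSG00000040249, chromosome 10, 127538161 to 127621148) had 12502, 14087, 14520 and 13158 normalized counts in Anesthesia replicates 1 to 4 and 10956, 11783, 9717 and 11189 in Control replicates 1 to 4. The lowest Anesthesia mouse was replicate 1, which was also the one Anesthesia library rich in choroid plexus markers. The mean ± SD of 4 mice was 13567 ± 909.1 under ketamine and 10911 ± 869 in Control mice, a ratio of 1.24. The log2 difference on the scale of log2(normalized count + 1) was 0.32 (standard error 0.071). Leaving out any single mouse gave values from 0.26 to 0.35. On this scale the change of genes with low counts is understated. Among all genes tested, 91.5% had a lower log2 difference. An annotated antisense gene, Gm16217, overlaps Lrp1 and was not analysed here, and the sources used here do not settle whether the counting kept strand.

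Of the 7 members, 1 (Lrp1) had groups that did not overlap, beside 5.04% of all genes tested (2.81% higher and 2.23% lower in the Anesthesia group). Since the members were chosen with this contrast known, nothing is read from that count. Of the 7 log2 differences 5 were above 0, where 49.2% of all genes tested were, and the median of the 7 was 0.21 against -0.0036 over all genes tested. Across the 18865 genes, 0 had an adjusted p under 0.05 in limma with Benjamini-Hochberg adjustment (0%), while 1513 (8.02%) had an unadjusted p under 0.05. The paper used a different test, DESeq2 on gene-level counts. With it the paper did report differentially expressed genes at an adjusted p under 0.05, most of them upregulated. The reason for this difference from the 0 genes found here was not tested.

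**Figure D1:**
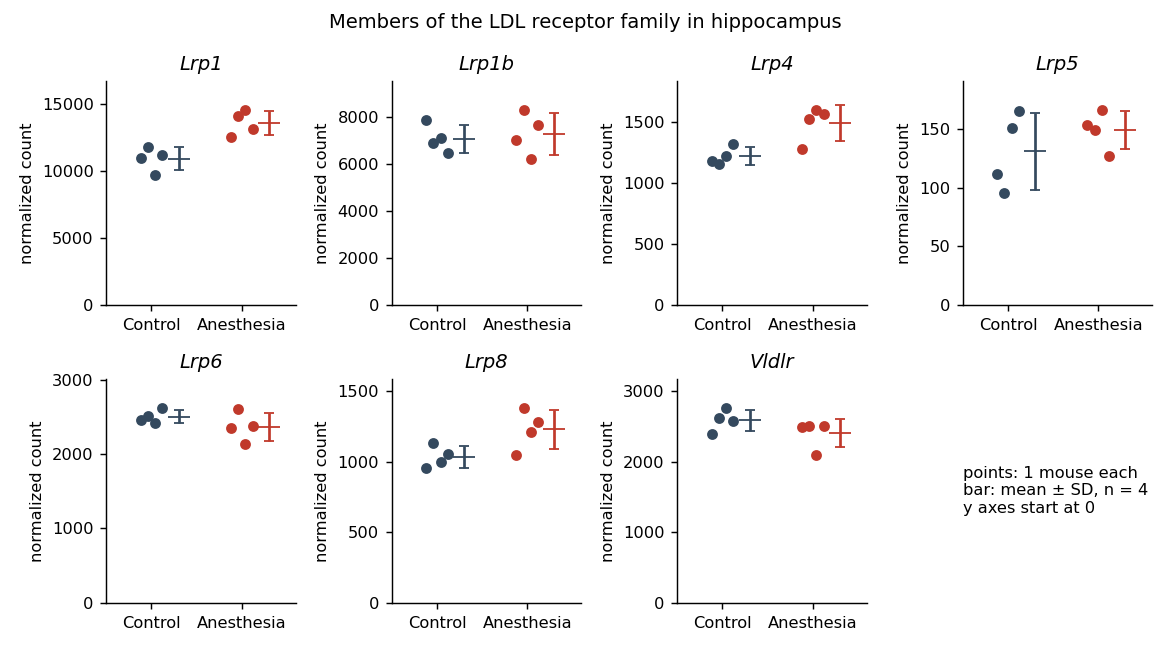
Normalized counts of the 7 members in each mouse, with 1 panel per gene, Control mice in dark blue and Anesthesia mice in red, a bar for the group mean ± SD (n = 4) and y axes that start at 0. Lrp1 values of the Anesthesia mice, 12502 to 14520, lie above all Control values, while the groups overlap in the other 6 panels.

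The level of Lrp1 was read beside markers of cells that express it. The 12 astrocyte markers summed to 117700 to 130972 normalized counts under ketamine and to 115432 to 121732 in Control mice, and 8 of the 12 had a log2 difference below 0 (median -0.071). Most of this sum is Slc1a2, the main glial glutamate transporter gene, with a log2 difference of 0.17 (standard error 0.060, limma adjusted p = 0.62). A second glutamate transporter gene, Slc1a3, at -0.096 (standard error 0.043, limma adjusted p = 0.622), and the gap junction gene Gja1, at -0.11 (standard error 0.049, limma adjusted p = 0.627), were lower with groups that did not overlap. They were the only 2 of the 12 markers without overlap, beside 5.04% of all genes tested. The 9 mural cell markers summed to 4548 to 5476 under ketamine and to 4920 to 5936 in Control mice. Of these 9 markers, 8 had a log2 difference below 0, and the 1 above 0 had groups that did not overlap. The 9 CA1 pyramidal neuron markers summed to 10436 to 12287 against 11345 to 13666. None of these 3 sums separated the groups.

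Lrp1 values also moved with a trend of whole libraries in GC content and transcript length. The longest Lrp1 transcript has 14888 bases and 89 exons. A smooth curve of each library's deviations on GC content and length stood, at the position of Lrp1, at -0.010, 0.061, 0.30 and 0.098 (log2) in Anesthesia replicates 1 to 4. In Control replicates 1 to 4 it stood at -0.16, -0.11, -0.13 and -0.053. Every Anesthesia library thus lay above every Control library on this trend as well, and Anesthesia replicate 3 was the highest on both measures. Anesthesia replicate 1 was the lowest Anesthesia library on both. It was also the one rich in choroid plexus markers, so these properties cannot be told apart in that mouse. After the trend was subtracted, Lrp1 had 12593, 13505, 11755 and 12293 normalized counts in Anesthesia replicates 1 to 4 and 12249, 12736, 10615 and 11606 in Control replicates 1 to 4. The groups then overlapped, as they did in all 7 members beside 3.92% of all genes whose groups did not, and the log2 difference of Lrp1 was 0.089 (standard error 0.069). Correction for GC content alone left 0.27 and correction for length alone 0.24, settings chosen after the data were seen. At Lrp1 the trend separated the groups, so its subtraction also takes away any group effect shared by long GC-rich genes. Trend and treatment cannot be told apart here.

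The same trend was present over all genes with long transcripts. Of 433 genes with a longest transcript of at least 5000 bases and a GC content of at least 55%, 81.5% had a log2 difference above 0, and the median was 0.17. After correction this median was 0.032 and the share higher was 60.0%. The curve was fitted to these same genes and libraries, so a fall of this median towards 0 follows from the correction itself. These limits of length and GC content were chosen after the values were seen. At 40 to 45% GC, where Lrp1b and Vldlr lie, the 927 long transcripts had a median of -0.0064. The cause of the trend was not tested.

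**Figure D2:**
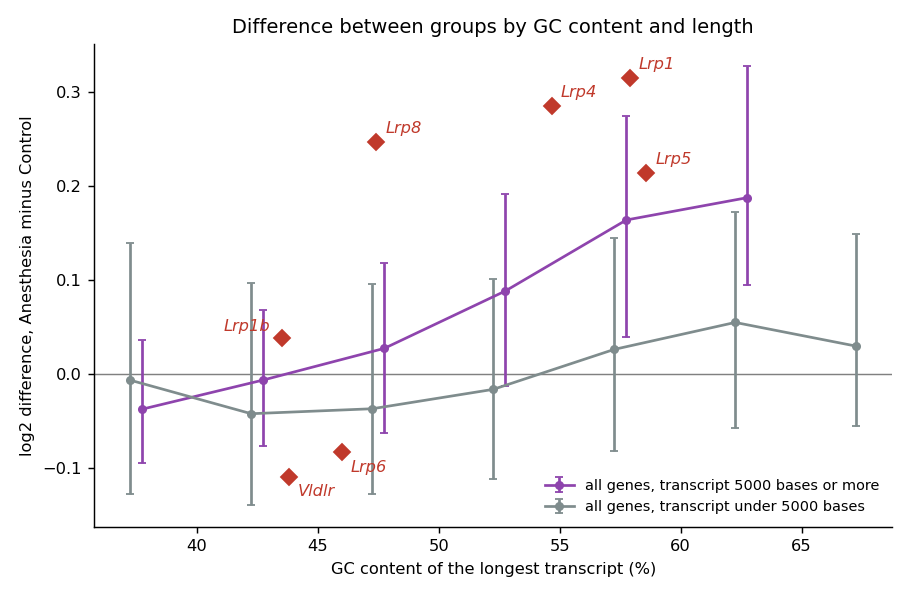
Log2 difference between the Anesthesia and Control groups against the GC content of the longest transcript, with medians and quartiles of all genes tested in bins of 5 percentage points for long (at least 5000 bases) and shorter transcripts, and the 7 members as red diamonds. The median of long transcripts climbs from -0.037 at 35 to 40% GC to 0.19 at 60 to 65% GC, and Lrp1, Lrp4 and Lrp5 lie at the GC-rich end.

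Lrp1 values are given next beside the choroid plexus markers of the libraries. Among the 4 libraries poor in choroid plexus markers, Anesthesia replicates 2, 3 and 4 had 13158 to 14520 normalized counts of Lrp1 and Control replicate 1 had 10956, a log2 difference of 0.34 (standard error 0.12). Among the 4 rich libraries, Anesthesia replicate 1 had 12502 and Control replicates 2, 3 and 4 had 9717 to 11783, a log2 difference of 0.20 (standard error 0.11). Each of these comparisons has a single mouse on one side, which is assumed to vary like the others, and they were added after the data were seen, so they are values only and the part of choroid plexus RNA was not tested by them. With the choroid plexus markers as a covariate over all 8 mice, the log2 difference was 0.26 (standard error 0.075).

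**Figure D3:**
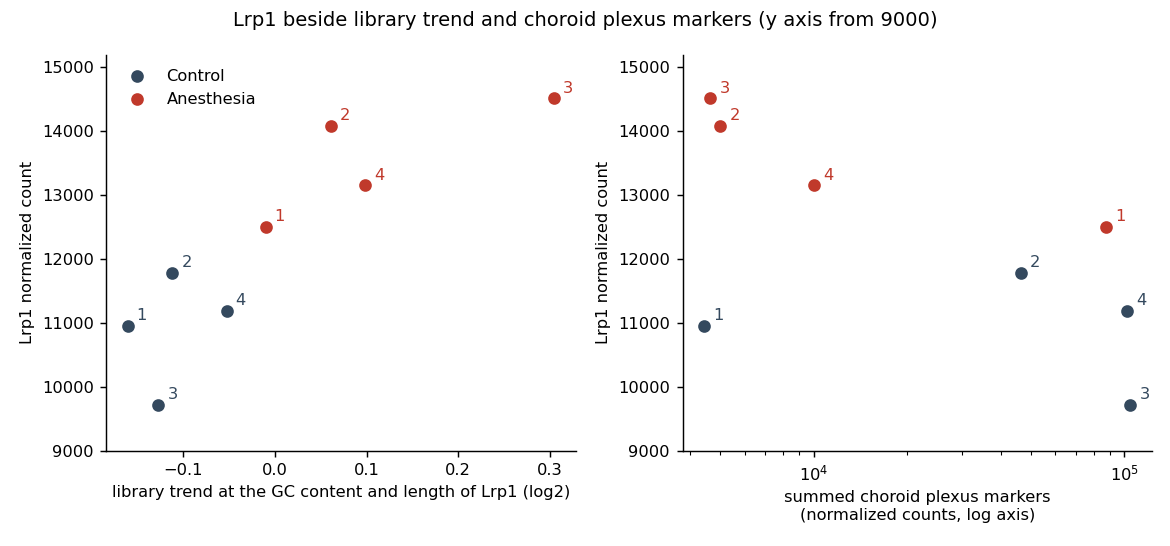
Lrp1 normalized count in each mouse (the y axis does not start at 0) against the library trend at the GC content and length of Lrp1 (left, log2) and against the summed choroid plexus markers (right, log axis), with replicate numbers beside the points. Anesthesia libraries lie to the right of Control libraries on the left panel, from -0.010 to 0.30, and Control replicate 1 lies among the choroid plexus-poor libraries with 10956 normalized counts of Lrp1.

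Lrp1b, the closest relative of Lrp1, had nearly equal means in the groups. Lrp1b (ENSMUSG00000049252, chromosome 2, 40595246 to 42653624) had 7041, 8303, 6222 and 7660 normalized counts in the Anesthesia mice and 7899, 6906, 7103 and 6469 in the Control mice. The groups overlapped widely, and Anesthesia replicate 3, the highest mouse for Lrp1, was the lowest of all 8 for Lrp1b. Its log2 difference was 0.038 (standard error 0.091), and its sign turned with single mice, from -0.026 without Anesthesia replicate 2 to 0.11 without Anesthesia replicate 3. After the GC content and length correction it was -0.039 (standard error 0.11), and among the choroid plexus-poor libraries -0.11. The gene spans 2058 kb, the longest of the 7, with a longest transcript of 16294 bases, so that its length is close to that of Lrp1 while its GC content is not.

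The reelin receptors Lrp8 and Vldlr stood on opposite sides of 0. Lrp8 (ENSMUSG00000028613, chromosome 4, 107802261 to 107876840) had 1049, 1379, 1212 and 1278 normalized counts in Anesthesia replicates 1 to 4 and 950.8, 1131, 995.6 and 1055 in Control replicates 1 to 4. The overlap came from Anesthesia replicate 1, which lay below 2 Control mice, and Anesthesia was higher in 14 of the 16 pairs of mice. Lrp8 had a log2 difference of 0.25 (standard error 0.091) and of 0.22 (standard error 0.091) after the GC content and length correction. It was 0.44 among the choroid plexus-poor libraries and -0.014 among the rich ones, where Anesthesia replicate 1 is the single Anesthesia mouse. An antisense gene at this locus, Lrp8os2, had 13.2 to 52.9 normalized counts, far below Lrp8. The longest coding transcript of Lrp8 in the annotation begins at 107830985, inside the gene, and holds 2095 coding bases. It thus leaves out the 5′ part of the gene. The GC content, the correction and the level per kilobase of the longest transcript given for Lrp8 all rest on it.

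Vldlr (ENSMUSG00000024924, chromosome 19, 27216484 to 27254231) had 2494, 2509, 2100 and 2506 normalized counts in the Anesthesia mice and 2395, 2624, 2760 and 2570 in the Control mice. The 3 Anesthesia mice other than replicate 3 were nearly equal, and they lay within the Control range. For Vldlr the log2 difference was -0.11 (standard error 0.073), -0.14 after the correction, and -0.046 without Anesthesia replicate 3. Of the 7 members, Vldlr had the lowest log2 difference.

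Lrp4, the agrin receptor, came nearest to Lrp1 in the deposited values. Lrp4 (ENSMUSG00000027253, chromosome 2, 91457511 to 91513779) had 1279, 1522, 1594 and 1564 normalized counts in the Anesthesia mice and 1180, 1157, 1219 and 1321 in the Control mice. Anesthesia was higher in 15 of 16 pairs, the exception being Anesthesia replicate 1 against Control replicate 4. Lrp4 had a log2 difference of 0.29 (standard error 0.081), 0.17 (standard error 0.068) after the correction, and 0.25 to 0.36 with each mouse left out. It was 0.40 among the choroid plexus-poor libraries and 0.056 among the rich ones. As for Lrp8, the lowest Anesthesia mouse was replicate 1.

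The Wnt co-receptors Lrp5 and Lrp6 differed in level, and their log2 differences stood on opposite sides of 0. Lrp5 (ENSMUSG00000024913, chromosome 19, 3584828 to 3686564) was the lowest member, with 153.7, 149.2, 165.9 and 126.9 normalized counts in the Anesthesia mice and 111.7, 95.1, 151.1 and 165.5 in the Control mice. The Control mice spread over a wide range that holds nearly all Anesthesia values, with a coefficient of variation of 25.2% against 10.9%. Lrp5 had a log2 difference of 0.21 (standard error 0.18), which was 0.093 (standard error 0.17) after the correction and 0.073 without Control replicate 2. Lrp6 (ENSMUSG00000030201, chromosome 6, 134446476 to 134566965) had 2349, 2604, 2134 and 2374 normalized counts in the Anesthesia mice and 2452, 2513, 2418 and 2618 in the Control mice. The Control mice were tightly grouped and lay within the wider Anesthesia range except for replicate 4. Lrp6 had a log2 difference of -0.083 (standard error 0.066) and -0.16 (standard error 0.084) after the correction. It was -0.13 without Anesthesia replicate 2 and -0.035 without Anesthesia replicate 3.

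Levels between members can be compared only per length. Per kilobase of the longest transcript, the mean over 8 mice was 822.1 ± 110.2 normalized counts for Lrp1, 441.9 ± 43.6 for Lrp1b, 313 ± 24.1 for Vldlr and 259.7 ± 16.7 for Lrp6 (SD, n = 8 each). Below these lay Lrp4 with 170.9 ± 22.6, Lrp8 with 170.7 ± 22.3 and Lrp5 with 27.1 ± 5.03 (SD, n = 8 each). The ranges of Lrp1 and Lrp1b did not overlap, nor did those of Lrp5 and Lrp8, while Vldlr and Lrp6 overlapped slightly and Lrp4 and Lrp8 could not be told apart. Per kilobase of the median coding transcript, Lrp1 stood at 4911 ± 658.5 and Lrp8, with 339.5 ± 44.4, stood above Lrp4, with 170.9 ± 22.6 (SD, n = 8 each). That measure divides Lrp1 by 2492 bases because 3 of its 4 coding transcripts in the annotation are short, and the share of each transcript is not in the gene-level values.

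Within the groups, members did not follow Lrp1 from mouse to mouse to the same degree. After each group mean was subtracted, the Pearson correlation with Lrp1 over the 8 mice, given as a description without a test, was 0.61 for Lrp8 and 0.38 for Lrp4. It was 0.086 for Lrp6, -0.18 for Lrp1b, -0.30 for Lrp5 and -0.56 for Vldlr. Among 12246 genes with a mean of at least 100 normalized counts, Lrp8 ranked only 993 and Lrp4 only 2582 by this measure. Of the same genes, the 5 closest to Lrp1 were Hgs (0.97), Hs6st1 (0.97), Celf1 (0.97), Aak1 (0.96) and Slc25a44 (0.95). Hgs encodes an endosomal sorting protein, Hs6st1 a heparan sulfate sulfotransferase, Celf1 an RNA-binding splicing factor, Aak1 a kinase of clathrin adaptors and Slc25a44 a mitochondrial carrier. All of these values come from the same 8 libraries. The 5 genes differed in GC content, from 46.6% in Celf1 to 58.2% in Hgs, and what lies behind the likeness was not tested. By Spearman correlation 3 of the 5 genes were again among the closest 5.

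The rest of the family was described with the adjusted p over all genes tested, and 0 of 8 genes passed the threshold. At an unadjusted p under 0.05 there was 1 of 8 genes, higher in the Anesthesia group, beside 4.75% of all genes tested in that direction. This was Lrp3, an endocytic receptor gene of the family, with 1099, 1035, 1114 and 977.2 normalized counts in the Anesthesia mice and 946.4, 973.6, 934.5 and 919.7 in the Control mice. Its groups did not overlap, though Anesthesia replicate 4 and Control replicate 2 were nearly equal. The log2 difference was 0.16 (standard error 0.064, limma adjusted p = 0.62), and it was 0.021 after the correction. The Lrp3 transcript has a GC content of 62.9%.

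Sorl1, an endosomal sorting receptor for the amyloid precursor protein, was nearly as abundant as Lrp1, with 11621 ± 1253 against 11163 ± 602.6 (SD, n = 4 each). Its log2 difference was 0.053 (standard error 0.078, limma adjusted p = 0.856). Lrp2, the megalin gene, which is known from absorptive epithelia including choroid plexus, had 95.5 to 110.4 normalized counts in the Anesthesia mice and 95.7 to 156.6 in the Control mice. The highest value belonged to Control replicate 3, the library with the highest choroid plexus marker sum (104761). Control replicate 4, with a sum of 102313, had only 105.7 normalized counts of Lrp2. Control replicate 2 had 96.9 and Anesthesia replicate 1 had 110.4, while the 4 poor libraries had 95.5 to 108.6. The log2 difference of Lrp2 was -0.11 (standard error 0.17, limma adjusted p = 0.87), and without Control replicate 3 it was 0.057. Lrp10, Lrp11, Lrp12, Ldlrad3 and Ldlrad4 had log2 differences between -0.090 and 0.12, with adjusted p-values from limma between 0.767 and 0.989.

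**Figure D4:**
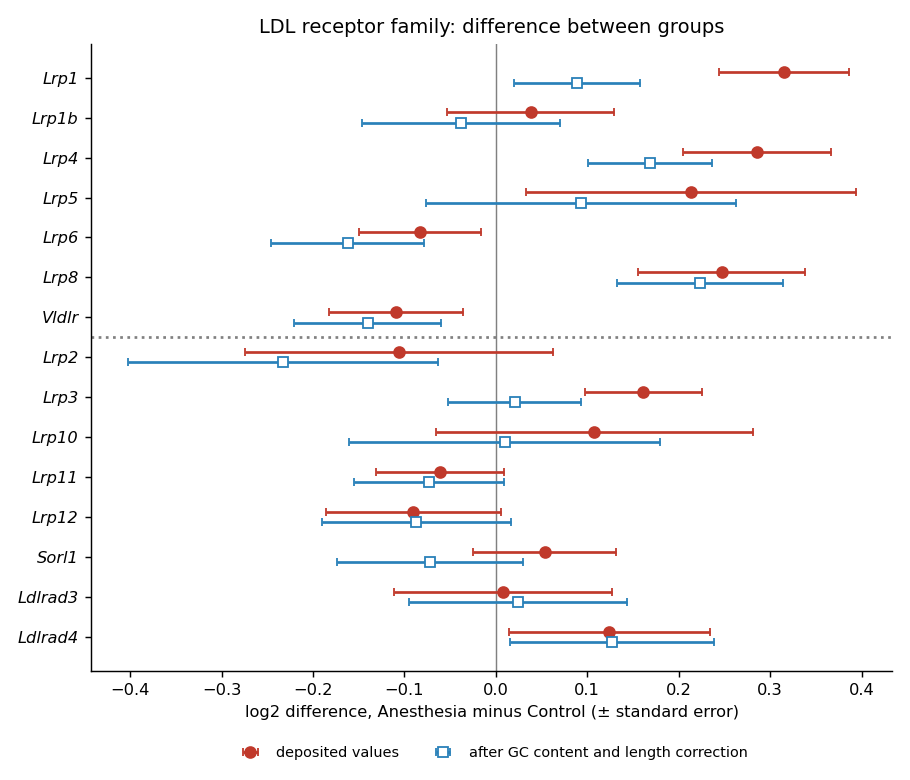
Log2 difference, Anesthesia minus Control, with its standard error for the 7 members (above the dotted line) and 8 other family genes (below), from the deposited values (red circles) and after the correction for GC content and transcript length (open blue squares). Lrp1 moves from 0.32 to 0.089 and Lrp3 from 0.16 to 0.021, while Lrp8 moves only from 0.25 to 0.22.

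Ligands, partners and downstream genes were taken from 6 further lists, and 0 genes of any list passed the adjusted threshold. The lists and the rest of the family together held 156 genes tested, of which 11 were higher and 9 lower at an unadjusted p under 0.05. Over all genes tested these shares were 4.75% higher and 3.27% lower. Without Anesthesia replicate 3 or 4 or Control replicate 3 or 4 there were 8 to 10 such genes instead of 20, and after the correction there were 12, beside 6.19% of all genes tested. The median log2 difference of the 156 genes was -0.013.

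Of 22 ligands of Lrp1 and lipoprotein receptors tested, 19 had a log2 difference below 0 and 3 above it. Over all genes tested 49.2% were above 0. The median of the 22 was -0.10. At an unadjusted p under 0.05, 3 were lower, beside 3.27% of all genes tested in that direction. These were Mdk, A2m and Lgals1, and after the correction 5 ligands had such a p, beside 6.19% of all genes tested. Mdk, which encodes the heparin-binding growth factor midkine, had 90.3, 97, 75.9 and 89.2 normalized counts in the Anesthesia mice and 127.5, 134.6, 106.7 and 122.6 in the Control mice. Its groups did not overlap, and the log2 difference was -0.48 (standard error 0.13, limma adjusted p = 0.568), -0.46 after the correction and -0.48 with the choroid plexus markers as a covariate. Unlike Lrp1, Mdk has a short transcript of 1054 bases, though its GC content of 57.2% is close to the 57.9% of Lrp1.

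A2m, which encodes the protease inhibitor alpha-2-macroglobulin, had 223.2, 103, 90.2 and 86.2 normalized counts in Anesthesia replicates 1 to 4 and 131.7, 190.2, 304.9 and 284.6 in Control replicates 1 to 4. The 4 highest libraries were the 4 rich in choroid plexus markers. The log2 difference was -0.89 (standard error 0.33, limma adjusted p = 0.62), and with the choroid plexus markers as a covariate it was -0.40. Lgals1, the galectin-1 gene, had a log2 difference of -0.42 (standard error 0.18, limma adjusted p = 0.622), and -0.22 with that covariate. Apoe, which encodes the main apolipoprotein of the brain, was steady, with 18176 to 18867 normalized counts in the Anesthesia mice and 18389 to 20406 in the Control mice. Its log2 difference was -0.068 (standard error 0.050, limma adjusted p = 0.726).

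Of 27 reelin signalling genes, 5 were higher and 0 lower at an unadjusted p under 0.05, while 12 had a log2 difference above 0 and 15 below it. Over all genes tested, 4.75% were higher and 3.27% lower at that level, and 49.2% had a log2 difference above 0. After the correction 1 of the 27 had such a p, beside 6.19% of all genes tested. The list was written with earlier results of these data known, so nothing is read from these counts. Rapgef1, which encodes a guanine nucleotide exchange factor downstream of reelin, had 1040, 1082, 1282 and 1401 normalized counts in the Anesthesia mice and 954.9, 951.2, 814.9 and 923.6 in the Control mice. Its groups did not overlap before or after the correction, and the log2 difference was 0.39 (standard error 0.10, limma adjusted p = 0.568) and 0.28 after it. Socs7, which encodes an adaptor in the degradation of activated Dab1, had a log2 difference of 0.19 (standard error 0.067) and Src, a kinase that phosphorylates Dab1, of 0.19 (standard error 0.072), each with an adjusted p of 0.62 in limma. After the correction these were 0.099 and 0.096. The ligand Reln ranged from 3342 to 5702 normalized counts in the Anesthesia mice and from 3346 to 4190 in the Control mice, with a log2 difference of 0.13 (standard error 0.15, limma adjusted p = 0.81) that was -0.031 without Anesthesia replicate 3. The adaptor Dab1 had a mean of 1512 ± 127.9 against 1383 ± 83 (SD, n = 4 each), with a log2 difference of 0.13 (standard error 0.075, limma adjusted p = 0.673) that was 0.077 without Anesthesia replicate 2.

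Of 45 genes of the Wnt co-receptor pathway tested, 2 were higher and 1 was lower at an unadjusted p under 0.05, and after the correction 1 in all had such a p. The shares over all genes tested were 4.75% higher, 3.27% lower and 6.19% after the correction. Gsk3b, the kinase that marks beta-catenin for degradation, had a log2 difference of 0.23 (standard error 0.091, limma adjusted p = 0.62), and Znrf3, a ubiquitin ligase that removes Frizzled and Lrp6 from the membrane, of 0.35 (standard error 0.15, limma adjusted p = 0.622). Among the choroid plexus-poor and rich libraries Gsk3b was at 0.38 and 0.036, and Znrf3 at 0.18 and 0.12, or 0.20 with the covariate. Tcf7l2, a transcription factor of the pathway, had 35.7 to 39.5 normalized counts in the Anesthesia mice and 37.6 to 68.7 in the Control mice, a log2 difference of -0.57 (standard error 0.20, limma adjusted p = 0.62). The log2 difference of Tcf7l2 was -0.017 among the poor libraries, -0.79 among the rich ones and -0.41 with the covariate.

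Of 8 genes of the agrin and MuSK pathway tested, 2 were higher and 1 was lower at an unadjusted p under 0.05, and 2 in all had such a p after the correction. Among all genes tested 4.75% were higher and 3.27% lower, and 6.19% had such a p after the correction. Agrn, which encodes agrin, the ligand of Lrp4, had 2942, 3513, 3497 and 3076 normalized counts in the Anesthesia mice and 2815, 3048, 2857 and 2826 in the Control mice. Only Anesthesia replicate 1 overlapped with a Control mouse, and the log2 difference was 0.17 (standard error 0.069, limma adjusted p = 0.62), and 0.041 after the correction. Ptprs, a receptor tyrosine phosphatase gene, had a log2 difference of 0.12 (standard error 0.054, limma adjusted p = 0.622), which was -0.037 after it. Musk, which encodes the kinase that Lrp4 activates at the neuromuscular junction, was low in hippocampus, at 24.8 ± 6.63 against 38.5 ± 10 normalized counts (SD, n = 4 each), with a log2 difference of -0.61 (standard error 0.26, limma adjusted p = 0.622). It was -0.099 among the choroid plexus-poor libraries and -0.84 among the rich ones.

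Of 30 genes for receptor folding, sorting, adaptors and cleavage, 1 was higher and 4 were lower at an unadjusted p under 0.05, and 3 in all had such a p after the correction. The shares over all genes tested were 4.75% higher, 3.27% lower and 6.19% after the correction. Mmp14, a membrane-bound metalloproteinase gene, had 134 to 181.5 normalized counts in the Anesthesia mice and 103.8 to 133.7 in the Control mice. The lowest Anesthesia and the highest Control mouse were nearly equal, and the log2 difference was 0.34 (standard error 0.13, limma adjusted p = 0.62). Vps35, the core of the retromer complex that recycles receptors from endosomes, had 3668 ± 231.4 against 4042 ± 79.5 (SD, n = 4 each), a log2 difference of -0.14 (standard error 0.056, limma adjusted p = 0.62). Gulp1, which encodes an adaptor of the Lrp1 tail, had 82.1 ± 20.9 against 123.3 ± 26.1 (SD, n = 4 each), a log2 difference of -0.59 (standard error 0.22, limma adjusted p = 0.62) that was -0.38 with the choroid plexus covariate. Lrpap1, the chaperone that keeps newly made family receptors free of ligand, had 2447 ± 278.1 against 2520 ± 189.9 (SD, n = 4 each), with a log2 difference of -0.046 (standard error 0.086, limma adjusted p = 0.893).

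Of 17 sterol-response genes, 1 was higher and 0 were lower at an unadjusted p under 0.05, and 0 had such a p after the correction. Among all genes tested 4.75% were higher and 3.27% lower, and 6.19% had such a p after the correction. Lss, which encodes lanosterol synthase, stood at 1195 ± 133.7 against 1018 ± 84 normalized counts (SD, n = 4 each), with a log2 difference of 0.23 (standard error 0.091, limma adjusted p = 0.62). Srebf2, the master regulator of cholesterol synthesis genes, had a log2 difference of 0.17 (standard error 0.081, limma adjusted p = 0.636), 0.054 after the correction and 0.096 without Anesthesia replicate 3. Nr1h2, which encodes the oxysterol receptor LXR beta, had a log2 difference of 0.19 (standard error 0.098, limma adjusted p = 0.651).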

How the data were processed

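Hippocampal RNA of 8 mice was sequenced, 4 per group, and the deposited table holds 1 column per mouse, each matched to its mouse by group letter and number. The authors, by their methods and the submitters' processing notes, ran Salmon (1.1.0) in quasi-mapping mode with GC bias correction on GRCm38, imported gene-level estimates with tximport and divided them by DESeq2 (1.30.1) factors, so what was deposited is a normalized signal rather than counts of reads. The annotation release and the filter on low genes are not given in the sources used here. Sources differ on the TruSeq kit, a stranded total RNA kit in the methods and another one in the labels. Values near whole multiples of 1 read made up 59.9% to 75.7% of low values (within 0.1 of a read), so no count model was fitted, and limma (3.58.1, R 4.3.3) was used instead after taking log2(value + 1), its prior variance following mean level, on 18865 genes with a mean of at least 10. P-values were adjusted over all of these (Benjamini-Hochberg, threshold 0.05), and scripts were tested on simulated data. Of 20802 identifiers, 20784 were in GENCODE M21. The correction for GC content and transcript length subtracted from each library a loess curve (span 0.3) of its deviations from the gene means, using the longest coding transcript. Alternatives were other scalings, filters and pseudocounts, limma voom, a replicate block, a choroid plexus covariate, this correction, and leaving out each mouse. Each library is labelled as a separate mouse. The members, lists and named genes were chosen with earlier results of these data known. Named genes are the members, the rest of the family, the 3 genes with the smallest unadjusted p of each list, Reln, Dab1, Apoe, Lrpap1, Agrn, and the 5 genes most like Lrp1. One gene of the rest of the family is not reported here and was left out of its list. Slc1a2, Slc1a3, Gja1 and Lrp8os2 were added after their values were seen.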

Additional observations from a re-analysis of the deposited data

Results flagged for a closer look

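In 84 groups of 4 mice (the named genes in each group), 5 held a mouse that stood apart from its 3 group mates, where chance alone gives about 1 in 20 groups, or 4.2. The gap of that mouse over the range of its group was above 0.829 in each. Vldlr was lowest in Anesthesia replicate 3, with 2100 normalized counts against 2494 to 2509 (gap over range 0.964). Lrp2 was highest in Control replicate 3, with 156.6 against 95.7 to 105.7 (0.835). A2m was highest in Anesthesia replicate 1, with 223.2 against 86.2 to 103 (0.878). Src was lowest in Anesthesia replicate 1, with 1826 against 2145 to 2198 (0.858). Tcf7l2 was highest in Anesthesia replicate 4, with 39.5 against 35.7 to 36.2 (0.88). All mice were kept.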

How the results depend on the processing

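The Lrp1 log2 difference was above 0 under every alternative run. It moved by more than the spread between mice under correction for GC content and transcript length (0.089, with or without the replicate block) and in the choroid plexus-rich libraries (0.20). Between 4 and 5 of the 7 members were higher under each alternative. The number of genes called was 0 under every alternative except without Control replicate 1, so that leaving out single mice gave 0 to 2. Genes with an unadjusted p under 0.05 numbered 1513, and 860 when the replicate block joined the correction, 835 with the choroid plexus covariate, 662 in the choroid plexus-poor and 576 in the rich libraries, and 1061 to 2024 with a mouse left out. Pathway list genes at that level numbered 20. There were 12 with the GC content and length correction, 10 with the block as well, 13 with the replicate block alone, 5 with the choroid plexus covariate, 4 in the poor and 4 in the rich libraries, and 8 to 25 with a mouse left out. Of the 5 genes most like Lrp1, 3 were among the 5 by Spearman correlation, and 5 of the 7 members kept their place per kilobase with the longest transcript. The cause of these shifts was not tested. The fits on part of the libraries also had fewer mice, and the part of that in the shifts was not tested either.

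The log2 difference moved by over 1.5 times or turned its sign in 18 of 42 named genes with the GC content and length correction, 15 with the choroid plexus covariate, 21 in the poor and 27 in the rich libraries, and 18 with some mouse left out. Among members, Lrp1b turned to -0.039 with the correction, -0.0043 with the covariate and -0.11 in the poor libraries, and Lrp8 to -0.014 in the rich ones. With the GC content and length correction, with or without the block, Sorl1 was at -0.072, Ptprs at -0.037 and Reln at -0.00053, and with length alone Sorl1 was at -0.010. Lrp2 was at 0.0016 with the choroid plexus covariate, 0.079 in the poor libraries and 0.057 without Control replicate 3. In the rich libraries Ldlrad3 was at -0.13, Ldlrad4 at -0.18 and Lrpap1 at 0.22. With single mice left out, values ran from -0.0075 to 0.12 for Sorl1, -0.062 to 0.076 for Ldlrad3, -0.031 to 0.23 for Reln, -0.12 to 0.0028 for Lrpap1, -0.017 to 0.25 for Lrp10 and -0.18 to 0.057 for Lrp2.

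Deviations from the group means correlated at -0.242, -0.109, -0.182 and 0.0194 between same-numbered mice. These correlations cannot settle whether equal replicate numbers stand for a shared litter, cage or batch. With the replicate block the Lrp1 log2 difference was 0.32 (standard error 0.077) and 1084 genes had an unadjusted p under 0.05. The corrections for GC content or length alone and the fits on choroid plexus-rich or poor libraries were chosen after seeing the data.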
